A study of Mus musculus with 19 samples.

Results

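Periostin (Postn) and its relative Tgfbi, the tenascins Tnc and Tnxb, fibronectin (Fn1), and Sparc with its relatives Sparcl1 and Smoc2 were measured in left ventricles of mice whose aorta had been banded and of sham-operated mice. The set was given by 9 gene symbols, and 8 of them had at least 1 probe set that the platform annotation pairs with that symbol alone (16 probe sets in all, of 18194 genes on the array). No probe set carries the symbol Spp1 (osteopontin) in that annotation, so osteopontin was not analysed here. Each gene is represented by its probe set with the highest mean signal on the 19 arrays, and all 8 genes passed the filter on dim probe sets (a log2 signal above 4 in at least 5 arrays), as did 10733 genes in all.

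All mice were male C57BL/6, operated at 7 weeks of age and killed 4 weeks later, and each gave 1 array of left ventricular RNA. The groups are 5 sham-operated mice, 7 mice with aortic banding and no heart failure, and 7 with aortic banding and heart failure. The banded groups had the same operation and differ by outcome; the labels do not name the criterion for heart failure. A left ventricular index, which the labels call an ending ventricular weight and which equals the other labelled ventricular weight over tibia length apart from the unit, was 5.14 ± 0.26 (SD, n = 5) in sham mice, 6.98 ± 0.437 (n = 7) without and 8.97 ± 0.608 (n = 7) with heart failure.

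Most of these genes encode matricellular proteins, secreted into the extracellular matrix, where they bind collagens, growth factors and cell surface receptors and shape how cells attach and how fibrils assemble. Adult ventricles hold little of several of them, and injury or mechanical load is known to bring them back, with fibroblasts as a main source. Fibronectin is a structural glycoprotein to which cells attach through integrins and on which other matrix proteins are laid down. Values are log2 signals, in which a difference of 1 is a doubling. They are not compared between genes, because probe sets differ in brightness.

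The arrays were not alike in control signals. The signal of the 18S ribosomal RNA control lay between 9.03 and 11.8 on 6 arrays and between 5.14 and 7.62 on the other 13. The 6 arrays are sham mice 1 to 3 and banded mice without heart failure 5 to 7. The animal IDs in the titles fall into 3 series, and series 1 holds those 6 mice and mice 1 and 2 with heart failure, while series 2 and 3 hold the rest. The labels do not call these series batches. The difference between the 3' and 5' actin controls, a sign of RNA quality, was 0.943 to 1.02 in sham mice, 0.672 to 0.898 without and 0.661 to 0.905 with heart failure, so no banded mouse reached the sham range. Its part in the differences from sham cannot be told apart from banding. Of 8 cardiomyocyte markers 8 were above the filter, with a mean log2 signal between 15.48 and 15.67 on every array. These values show heart muscle, and they do not test which chamber it came from.

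Banded ventricles without heart failure had more Postn, Tnc, Fn1, Sparc and Smoc2 RNA than sham ventricles, 5 of the 8 genes measured, and none had less. Ventricles with heart failure had more of 7 of the 8, these and Sparcl1 and Tgfbi. Comparing the banded groups, Postn, Tnc and Fn1 were higher with heart failure, and 0 of the other 5 passed the threshold (limma adjusted p under 0.05; 2 of those, Sparc and Sparcl1, had an unadjusted p under 0.05). Of all 10733 genes, 10.8% were called higher in banded mice without heart failure, 20.4% in those with heart failure (both against sham) and 3.83% between the banded groups. Calls in either direction were 17.4%, 39.3% and 9.48%. The median log2 difference of the 8 genes was 0.62, 0.86 and 0.32 in these comparisons, beside 0.02, 0.01 and -0.01 over all genes tested. The comparisons with sham share the same sham mice. The calls of the 8 genes kept their direction after quantile normalisation or with equal array medians, but with equal medians Tgfbi with heart failure no longer passed (0.439, limma adjusted p = 0.0573). Over all genes the number called higher without heart failure went from 1164 of 1865 to 902 of 1828 and 844 of 1925. With heart failure it went from 2193 of 4220 to 1794 of 4380 and 1683 of 4457.

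**Figure D1:**
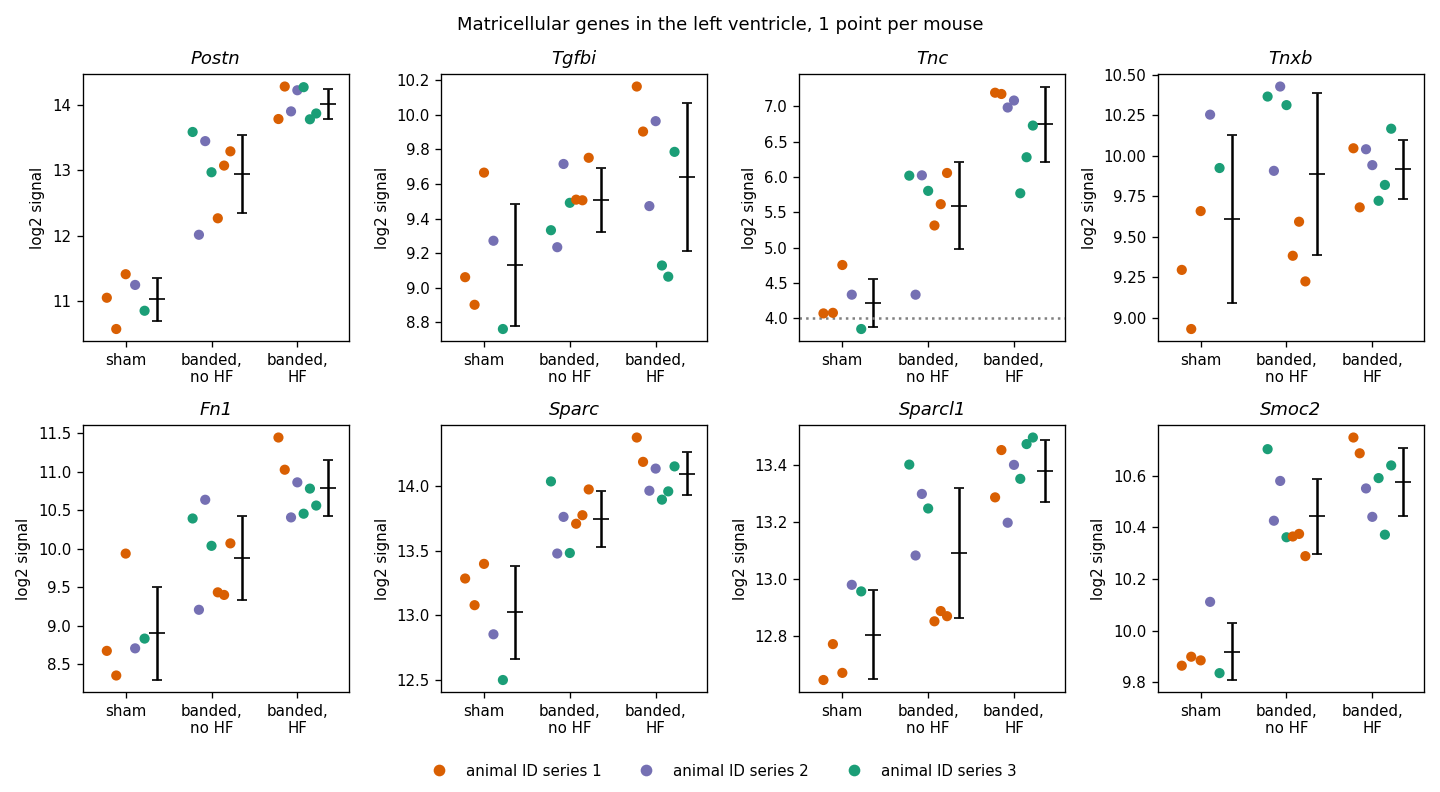
Log2 signal of the main probe set of each gene (vertical axis, scaled for each gene) in every mouse, by group (horizontal axis; HF, heart failure). Points are mice coloured by animal ID series, bars are means ± SD, and the dotted line in the Tnc plot is the filter at 4. For Postn the 3 groups do not overlap (sham up to 11.41, banded without heart failure 12.01 to 13.59, with heart failure from 13.78), whereas for Tnxb they overlap throughout.

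**Figure D2:**
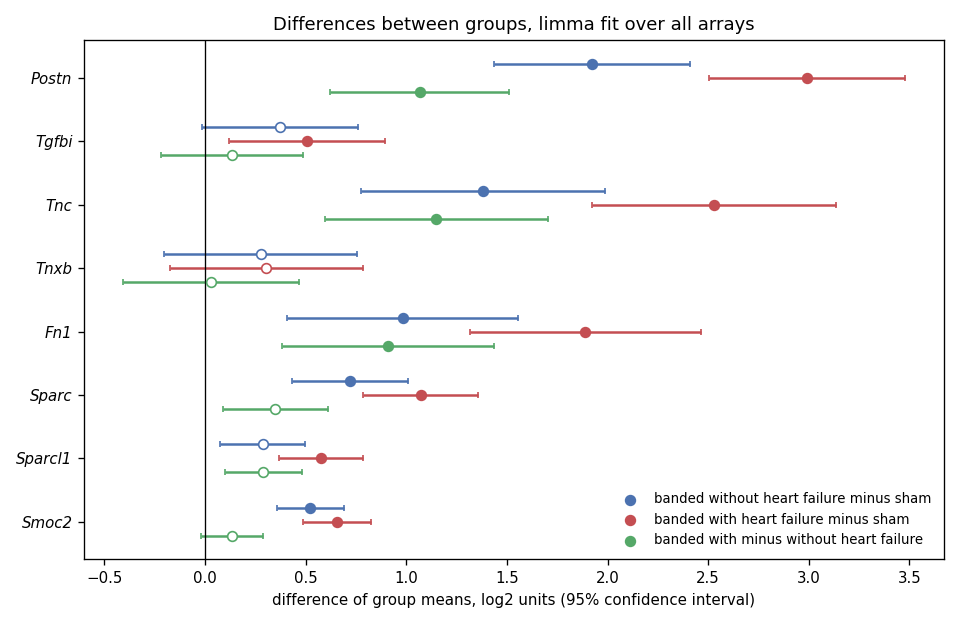
Differences between group means on the log2 scale (horizontal axis) with 95% confidence intervals, for 8 genes and 3 comparisons from 1 limma fit over all 19 arrays. Filled points passed an adjusted p of 0.05 and open points did not: the Postn, Tnc and Fn1 differences were filled in all 3 comparisons, and the Tnxb differences in none.

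The regions just before the transcription start are shown for Postn, Tnc and Sparc, which rose in both comparisons with sham, and for Tnxb, which did not pass in any. The sequences come from RefSeq (GRCm38.p6), which gave 7 start sites for 5 of the 8 genes (Postn, Tnc, Sparc, Tgfbi and Tnxb). Each is the 150 bases before 1 annotated start, 5′ to 3′ on the gene's own strand, with TATAAA and TGANTCA (the AP-1 motif) in capitals. The stretches are chr3:54360957-54361106 on the plus strand for Postn (the second of its starts in the table), chr4:64047016-64047165 on the minus strand for Tnc, chr11:55420081-55420230 on the minus strand for Sparc and chr17:34670385-34670534 on the plus strand for Tnxb.
Postn: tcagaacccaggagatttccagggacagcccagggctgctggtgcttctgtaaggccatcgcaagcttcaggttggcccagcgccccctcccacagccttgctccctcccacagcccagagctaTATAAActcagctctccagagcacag
Tnc: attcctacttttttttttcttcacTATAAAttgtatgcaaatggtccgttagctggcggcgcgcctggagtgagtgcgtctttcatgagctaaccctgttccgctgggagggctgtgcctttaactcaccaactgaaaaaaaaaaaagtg
Sparc: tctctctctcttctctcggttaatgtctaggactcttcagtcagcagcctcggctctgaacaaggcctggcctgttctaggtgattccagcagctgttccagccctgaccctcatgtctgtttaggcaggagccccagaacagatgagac
Tnxb: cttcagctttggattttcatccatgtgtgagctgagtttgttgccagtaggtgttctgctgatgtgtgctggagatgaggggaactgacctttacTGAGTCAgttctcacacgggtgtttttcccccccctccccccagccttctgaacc
TATAAA lies 26 to 21 bases before this Postn start and 126 to 121 before this Tnc start, and 7.57% of the 32851 stretches of this length in the table hold it on either strand. TGANTCA lies 55 to 49 bases before the Tnxb start, and 4.24% of all stretches hold it. CAGACA, a SMAD-type motif, was found on the other strand 36 to 31 bases before the Sparc start (10.3% of all stretches). Tnc has another annotated start, not shown, with CAGACA on the other strand 71 to 66 bases before it. From that start TATAAA lies farther off, 205 to 200 bases before it. The search matched exact letters only, and the similar tatataag, nearer to that start, was not counted. None of these motifs was found before the other Postn start, also not shown. CATTCC (TEAD, 7.59% of all) and the CArG box (0.916%) were in none of the 4, and GGGCGG (the GC box, 28.6%) was in none of them either. No motif was shared by the 3 genes that rose.

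Postn and Tgfbi encode the pair of secreted proteins built from fasciclin domains. Periostin binds collagen and other matrix proteins and is a marker of activated fibroblasts in the injured heart, and Tgfbi is named for its induction by TGF-beta. The log2 signal of Postn was 11.05, 10.57, 11.41, 11.25 and 10.85 in sham mice 1 to 5. It ran from 12.01 to 13.59 in banded mice without heart failure (median 13.07) and from 13.78 to 14.28 with heart failure (median 13.90). The 3 groups formed 3 separate ranges, with every banded mouse above every sham mouse and every failing ventricle above every banded one without heart failure. Such separation upward was seen for 4.63%, 8.5% and 0.839% of all genes in the comparisons without heart failure against sham, with heart failure against sham, and between the banded groups. Postn rose 3.79-fold without heart failure (log2 difference 1.92 ± 0.23, SE; limma adjusted p = 2.85e-05) and 7.94-fold with heart failure (2.99 ± 0.23, adjusted p = 4.34e-08). It was 2.09-fold higher with than without heart failure (1.07 ± 0.21, 95% confidence interval 0.62 to 1.51, adjusted p = 0.00568). By size of rise it was gene 17 of 10733 without and gene 20 with heart failure. The spread was wider without heart failure (SD 0.595) than with it (SD 0.232).

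Postn was similar in size within the array sets. Within animal ID series 1 the difference from sham was 1.86 without and 3.02 with heart failure, and within series 2 and 3 it was 1.95 and 2.96. Between the banded groups it was 1.16 ± 0.35 (limma adjusted p = 0.0575) in series 1, where 2 mice with heart failure stood against 3 without, and 1.01 ± 0.28 (adjusted p = 0.197) in series 2 and 3. In series 1 the 3 mice without heart failure had high and the 2 with heart failure low 18S signal, so that outcome and 18S set cannot be told apart there. On the low 18S arrays alone it was 1.01 ± 0.25 (adjusted p = 0.0632), with 4 mice without and 7 with heart failure.

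Tgfbi differed less than Postn from sham. Its main probe set gave 9.06, 8.90, 9.67, 9.27 and 8.76 in sham mice 1 to 5. It gave 9.23 to 9.75 (median 9.51) in banded mice without heart failure and 9.06 to 10.16 (median 9.79) with heart failure. The groups overlapped, and the mice with heart failure fell apart: mice 5 and 6 lay at 9.13 and 9.06, inside the sham range, and mice 1, 2, 4 and 7 at 9.79 or above, over every sham mouse. Without heart failure the difference of 0.37 ± 0.19 did not pass (adjusted p = 0.175, 95% confidence interval -0.01 to 0.76). With heart failure Tgfbi rose 1.42-fold (0.51 ± 0.19, limma adjusted p = 0.036). The call was lost without sham mouse 1 (0.49, adjusted p = 0.0715), 2 (0.45, adjusted p = 0.093) or 5 (0.415, adjusted p = 0.098). It was also lost without mouse 1 (0.42, adjusted p = 0.0756), 2 (0.464, adjusted p = 0.0674), 4 (0.454, adjusted p = 0.0704) or 7 with heart failure (0.483, adjusted p = 0.061). The interval of the difference between the banded groups ran from -0.22 to 0.49.

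The probe sets of Tgfbi did not give the same picture. The others, of which 2 carry the suffix that Affymetrix gives to probe sets that can bind other transcripts, differed by 0.17 to 0.40 between mice with heart failure and sham, and 0 of 3 passed over the 18595 probe sets tested (limma adjusted p from 0.0727 to 0.547; 1 of 3 had an unadjusted p under 0.05). With the mean of its probe sets Tgfbi differed by 0.337 (adjusted p = 0.135). The call was also lost on the low 18S arrays (0.623, adjusted p = 0.112), in ID series 2 and 3 (0.466, adjusted p = 0.231) and with only the groups compared in the fit (0.508, adjusted p = 0.081). It was kept in 9 of the 15 other settings. Among these were the ID series as a block (0.618, adjusted p = 0.00679) and the 18S set as a block (0.606, adjusted p = 0.0386). The main probe set also carries a suffix for shared sequence.

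**Figure D3:**
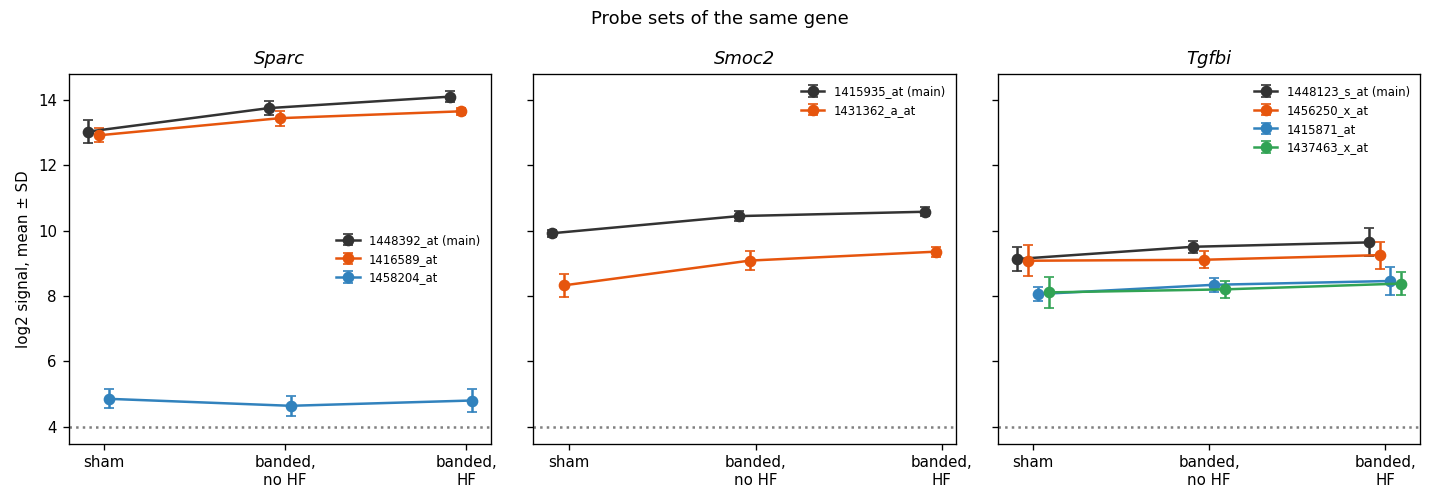
Mean ± SD log2 signal (vertical axis) by group (horizontal axis) for each probe set of Sparc, Smoc2 and Tgfbi that passed the filter; the dotted line is the filter at 4 and HF is heart failure. The bright probe sets of Sparc and both of Smoc2 climb from sham to banding, the dim Sparc probe set stays near 4.8, and those of Tgfbi climb little.

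The tenascins are large multidomain glycoproteins. Tenascin-C is scarce in the healthy adult heart and appears in injured and remodelling tissue, whereas tenascin-X (Tnxb) is a constant part of connective tissue, where it is tied to collagen fibrils. Tnc gave 4.07, 4.08, 4.75, 4.33 and 3.85 in sham mice 1 to 5, at or near the filter. It gave 4.33 to 6.06 (median 5.80) in banded mice without heart failure and 5.77 to 7.19 (median 6.98) with heart failure. Every mouse with heart failure lay above every sham mouse, and of the banded mice without heart failure only mouse 2, at 4.33, lay within the sham range. Tnc rose by 1.38 ± 0.29 without heart failure (limma adjusted p = 0.00328) and by 2.53 ± 0.29 with heart failure (adjusted p = 2.47e-06). No fold is given against sham because 1 sham array was below the filter, where this type of value compresses differences. Tnc was 2.22-fold higher with than without heart failure (1.15 ± 0.26, adjusted p = 0.0119).

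Tnc kept its sign in each array set, and its calls differed between them. The difference without heart failure was 1.36 ± 0.237 in ID series 1 (limma adjusted p = 0.00977), 1.45 ± 0.491 in series 2 and 3 (adjusted p = 0.152), and 1.45 ± 0.483 on the low 18S arrays (adjusted p = 0.126). With heart failure against sham it passed in all 3 sets (adjusted p = 0.000516, 0.00612 and 0.0014). Between the banded groups it was 1.52 ± 0.265 in series 1 (adjusted p = 0.0106), 1.02 ± 0.381 in series 2 and 3 (adjusted p = 0.286) and 1.2 ± 0.35 on the low 18S arrays (adjusted p = 0.0982). Among mice with heart failure, the 3 of series 3 were the lowest, at 5.77 to 6.73, and the 2 of series 1 the highest, at 7.17 and 7.19. The other probe set of Tnc lay at the floor of the table, 2.19, on all 19 arrays, so it gave no second reading.

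Tnxb did not differ beyond the spread of its groups. It gave 9.29, 8.93, 9.66, 10.25 and 9.92 in sham mice 1 to 5, 9.22 to 10.43 (median 9.91) in banded mice without and 9.68 to 10.17 (median 9.94) with heart failure. The differences were 0.28 ± 0.23 (95% confidence interval -0.20 to 0.75, limma adjusted p = 0.434), 0.31 ± 0.23 (-0.17 to 0.78, adjusted p = 0.304) and 0.03 ± 0.21 (-0.41 to 0.47, adjusted p = 0.946). Its signal split the banded mice without heart failure as the 18S control did: mice 5 to 7 lay at 9.22 to 9.59 and mice 1 to 4 at 9.91 to 10.43. In sham mice, numbers 1 to 3 lay at 8.93 to 9.66 and numbers 4 and 5 at 10.25 and 9.92. With the 18S set as a block the differences were 0.13, -0.193 and -0.327 (adjusted p = 0.112 for the last), so the sign of 2 of them turned, and none passed. 

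Like Postn and Tnc, Fn1 passed in all 3 comparisons. It gave 8.67, 8.35, 9.94, 8.71 and 8.83 in sham mice 1 to 5, with mouse 3 apart from the others. The range was 9.21 to 10.64 (median 10.04) without heart failure and 10.41 to 11.44 (median 10.78) with heart failure. The failing ventricles all lay above the sham mice, and those without heart failure overlapped both other groups. Fn1 rose 1.97-fold without heart failure (0.98 ± 0.28, limma adjusted p = 0.0196) and 3.70-fold with heart failure (1.89 ± 0.28, adjusted p = 3.26e-05), and was 1.88-fold higher with than without it (0.91 ± 0.25, adjusted p = 0.0295). Without sham mouse 1 the first of these was 0.924 (adjusted p = 0.0514), and without sham mouse 2 it was 0.845 (adjusted p = 0.0666). The call between the banded groups was lost without mouse 2 (0.796, adjusted p = 0.0633), 5 (0.833, adjusted p = 0.0729) or 6 (0.828, adjusted p = 0.0651) of those without heart failure. It was also lost without mouse 1 (0.799, adjusted p = 0.0672), 2 (0.869, adjusted p = 0.0629) or 4 (0.896, adjusted p = 0.0544) of those with heart failure. The array sets differed too: the difference between the banded groups was 1.6 in ID series 1 and 0.545 ± 0.245 in series 2 and 3 (adjusted p = 0.365), and with the 18S set as a block it was 0.837 ± 0.282 (adjusted p = 0.0725). Without heart failure against sham it was 0.646 ± 0.406 in series 1 (adjusted p = 0.293) and 1.3 ± 0.317 in series 2 and 3 (adjusted p = 0.0651). The other probe set of Fn1 lay below 3 on all 19 arrays.

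Sparc, Sparcl1 and Smoc2 share a SPARC-type calcium-binding domain. Sparc (osteonectin) binds procollagen and is needed for normal collagen fibrils, Sparcl1 (hevin) is a relative found in vessels and the nervous system, and Smoc2 is a modular calcium-binding protein of basement membranes and matrix. Sparc gave 13.28, 13.08, 13.40, 12.85 and 12.50 in sham mice 1 to 5. It gave 13.48 to 14.03 (median 13.76) without and 13.89 to 14.37 (median 14.13) with heart failure. Every banded mouse lay above every sham mouse. Sham mice 1 to 3, with high 18S signal, lay above sham mice 4 and 5, while the banded mice without heart failure did not split by 18S set. Sparc rose 1.65-fold without heart failure (0.72 ± 0.14, limma adjusted p = 0.00157) and 2.10-fold with heart failure (1.07 ± 0.14, adjusted p = 8.17e-06). Its second bright probe set rose by 0.52 ± 0.11 and 0.73 ± 0.11 (adjusted p = 0.00412 and 6e-05 over the probe sets), and a dim one near 4.8 differed by -0.21 and -0.05 and did not pass.

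Sparc differed between the banded groups by 0.35 ± 0.13 (95% confidence interval 0.09 to 0.61), which did not pass (limma adjusted p = 0.0847). It passed with the ID series as a block (0.394 ± 0.105, adjusted p = 0.0239), with the 18S set as a block (0.484 ± 0.12, adjusted p = 0.0208) and without sham mouse 5 (0.35, adjusted p = 0.0434). It also passed with array weights (limma adjusted p = 0.0148), in ID series 1 alone (adjusted p = 0.0395) and with only the groups compared in the fit (adjusted p = 0.0392). In 10 of the 15 other settings it did not pass. In each ID series the means of the 3 groups stood in the same order. They were 13.25, 13.82 and 14.28 in series 1, 12.85, 13.62 and 14.05 in series 2, and 12.50, 13.76 and 14.00 in series 3, for sham, banded without and banded with heart failure.

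Sparcl1 had narrow ranges, and its order followed the array sets as well as the groups. It gave 12.65, 12.77, 12.67, 12.98 and 12.96 in sham mice 1 to 5, 12.85 to 13.40 (median 13.08) without and 13.20 to 13.50 (median 13.40) with heart failure. Mice 5 to 7 without heart failure, at 12.85 to 12.89, lay in the range of sham, and the other 4, at 13.08 to 13.40, lay above it. With heart failure Sparcl1 rose 1.49-fold (0.58 ± 0.10, limma adjusted p = 0.000202). This rise was 0.371 with the 18S set as a block and 0.412 on the low 18S arrays (adjusted p = 0.000722 and 0.00764). Over the 15 other settings it ran from 0.319 to 0.674. Without heart failure Sparcl1 differed by 0.29 ± 0.10 (95% confidence interval 0.08 to 0.50), just short of the threshold (adjusted p = 0.0558), and between the banded groups by 0.29 ± 0.09 (0.10 to 0.48, adjusted p = 0.0541).

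Both of these last Sparcl1 differences passed with the ID series as a block (0.247 ± 0.076 and 0.249 ± 0.0695, limma adjusted p = 0.0296 for each). With the 18S set as a block the first passed (0.228 ± 0.0624, adjusted p = 0.015) and the second did not (0.143, adjusted p = 0.157). With the actin difference as a covariate the first was 0.0266 ± 0.116 (adjusted p = 0.908) and the second passed (0.293 ± 0.0749, adjusted p = 0.0185). Between the banded groups Sparcl1 differed by 0.5 in ID series 1 (adjusted p = 0.00726), where the 18S sets differ between the groups. In series 2 and 3 this difference was 0.126 (adjusted p = 0.557). Of the 15 other settings, the difference between the banded groups passed in 6 and the one without heart failure in 4. Single mice decided the calls too. Without heart failure it passed when sham mouse 4 (0.33, adjusted p = 0.0353) or 5 (0.324, adjusted p = 0.0442), or mouse 5 (0.327, adjusted p = 0.0329), 6 (0.32, adjusted p = 0.0428) or 7 (0.324, adjusted p = 0.0401) without heart failure, was left out. Between the banded groups it passed without mouse 1 (0.34, adjusted p = 0.0197) or 3 (0.323, adjusted p = 0.0367) of those without heart failure, or mouse 3 with it (0.319, adjusted p = 0.041).

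Smoc2 rose with banding, and no further difference passed between the banded groups. It gave 9.87, 9.90, 9.89, 10.11 and 9.84 in sham mice 1 to 5, 10.29 to 10.70 (median 10.38) without and 10.37 to 10.75 (median 10.59) with heart failure. All 14 banded mice lay above all 5 sham mice, while the banded groups overlapped over most of their ranges. The rise was 1.44-fold without (0.52 ± 0.08, limma adjusted p = 0.000287) and 1.58-fold with heart failure (0.66 ± 0.08, adjusted p = 5.1e-06). Between the banded groups the difference was 0.13 ± 0.07 (95% confidence interval -0.02 to 0.29, adjusted p = 0.263). It was 0.374 ± 0.062 in ID series 1 (adjusted p = 0.00924), where the 18S sets differ between the groups, and 0.00124 in series 2 and 3. In series 2 and 3 the difference from sham without heart failure was 0.544 ± 0.122 and just missed the threshold (adjusted p = 0.0515). The second probe set of Smoc2 rose by 0.76 ± 0.15 and 1.03 ± 0.15 against sham (adjusted p = 0.00233 and 3.64e-05 over the probe sets).

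**Figure D4:**
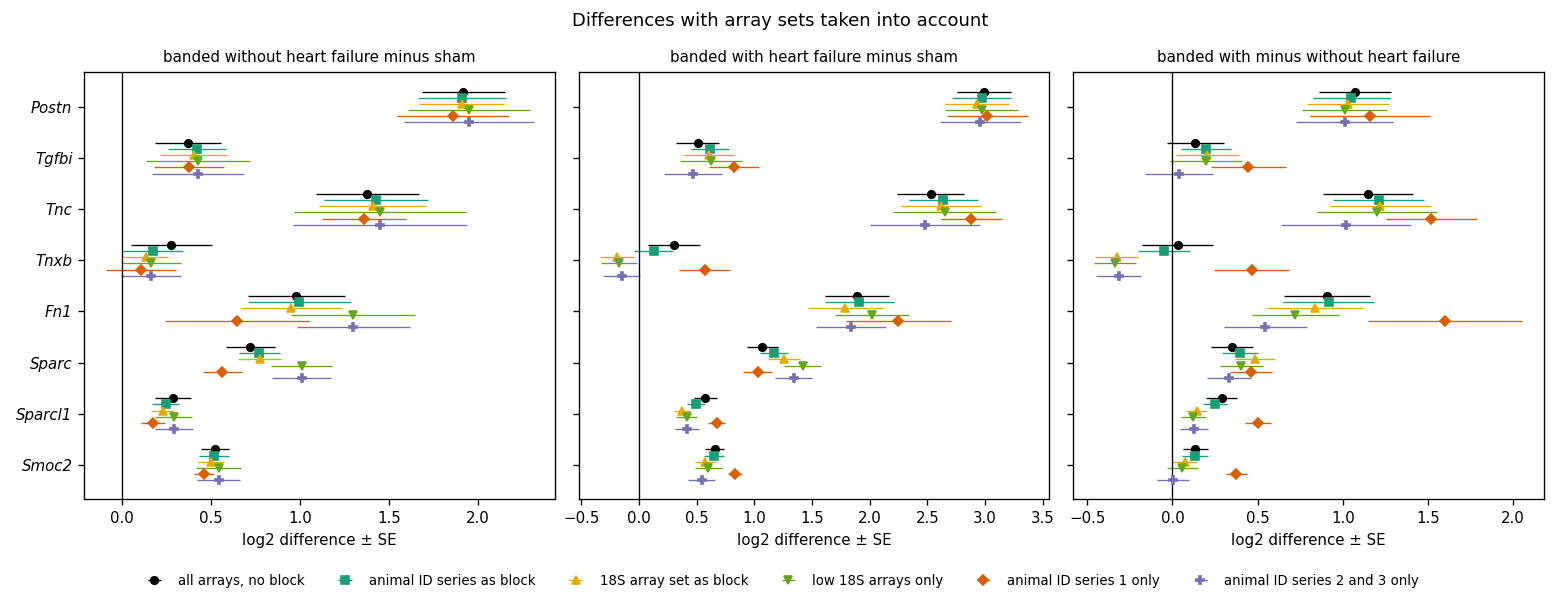
Log2 difference ± SE (horizontal axis) of each gene in the 3 comparisons, from the fit over all arrays, with the animal ID series or the 18S array set as a block, and within parts of the arrays. Postn stays near 1.9, 3 and 1 in the 3 comparisons. Between the banded groups every gene is higher in ID series 1 than in series 2 and 3 (1.6 against 0.545 for Fn1, 0.444 against 0.0393 for Tgfbi, 0.461 against 0.331 for Sparc).

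Mouse 2 without heart failure was the lowest of its group for Postn (12.01), Tnc (4.33), Fn1 (9.21), Tgfbi (9.23) and Sparc (13.48), though not for Tnxb, Sparcl1 or Smoc2. It also had the lowest left ventricular weight index of the 7 banded mice without heart failure, 6.42. Relations with the left ventricular index and the labelled lung index were computed within each banded group, 32 in all, and 0 passed after adjustment (2 had an unadjusted exact permutation p under 0.05 for Pearson's r). Postn and the left ventricular index in the 7 mice without heart failure gave r = 0.862 (exact permutation p = 0.0141, adjusted p = 0.383) and rho = 0.821 (exact permutation p = 0.0341, adjusted p = 0.512). Without mice 2 and 5, the farthest from the median index, r was 0.416 (exact permutation p = 0.508). Leaving them out also narrows the range of the index, so the fall in r cannot show that the relation rests on those mice. In the 7 mice with heart failure r was -0.679 (exact permutation p = 0.105) and rho -0.25 (exact permutation p = 0.595), and r was -0.462 without mice 1 and 7.

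**Figure D5:**
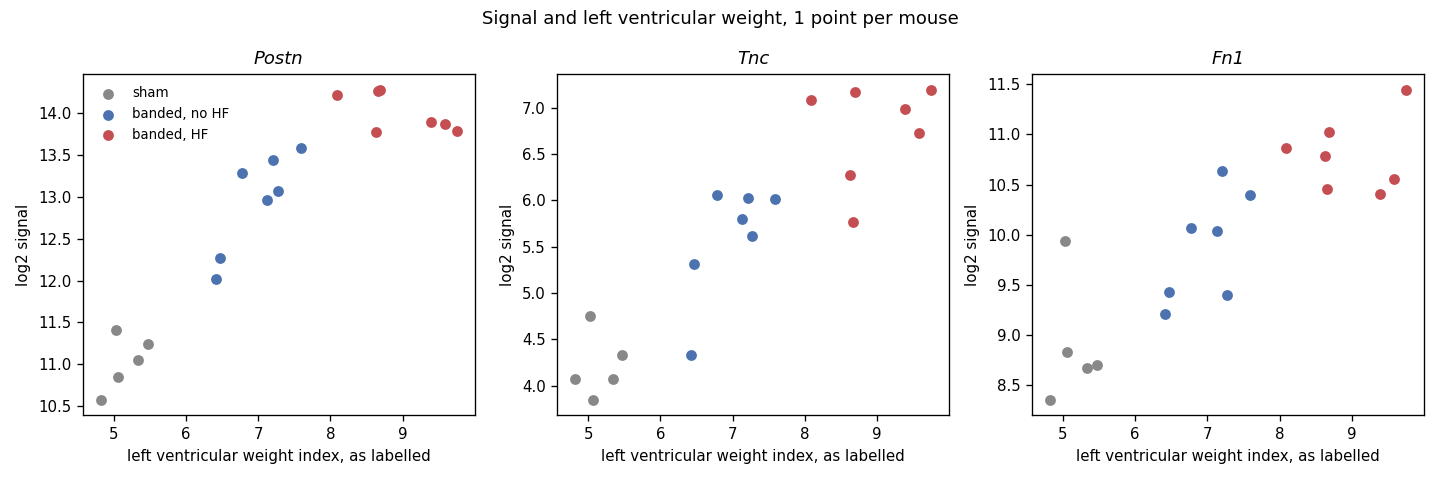
Log2 signal of Postn, Tnc and Fn1 (vertical axes) against the left ventricular weight index as labelled (horizontal axis), 1 point per mouse, coloured by group (HF, heart failure). For Postn the banded mice without heart failure climb from 12.01 at an index of 6.42 to 13.59 at 7.59, and the mice with heart failure lie between 13.78 and 14.28 at indices of 8.09 to 9.75.

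Pairs of genes were compared in the same way within each banded group (28 pairs in each group, 56 in all), and 0 passed after adjustment by Pearson's r (10 had an unadjusted exact permutation p under 0.05). For Postn and Tnc in the 7 mice without heart failure r was 0.915 (exact permutation p = 0.00238, adjusted p = 0.0905) and rho 0.821 (exact permutation p = 0.0341, adjusted p = 0.239), and r was 0.762 without mice 2 and 5. In the 7 mice with heart failure r for this pair was -0.112 (exact permutation p = 0.802) and rho 0.0714 (exact permutation p = 0.906). With heart failure Sparc and Tgfbi gave r = 0.924 (exact permutation p = 0.00357, adjusted p = 0.0905) and rho = 0.857 (exact permutation p = 0.0238, adjusted p = 0.19), and r was 0.895 without mice 1 and 5. Tnxb and Sparcl1 without heart failure fell into the clusters of the 18S sets described above, so no correlation is given for them.

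The genes whose values followed each gene best inside the groups were found by Pearson's r over the 19 arrays after subtracting group means, over all genes tested, and r is given as a description. Fn1 went with the fibrillar collagen gene Col3a1 (0.955), the small proteoglycan gene Lum (0.885) and Atp1b3 (0.884). Tnc went with the ligand gene Tgfb3 (0.89), Tmem45a (0.866) and Antxr1 (0.849), and Postn with Rtn4 (0.896), Pqlc3 (0.848) and Ltbp2 (0.836), which encodes a TGF-beta binding protein of the matrix. Sparc went with Tceal9 (0.86), Gusb (0.854) and Dio2 (0.843), and Smoc2 with Sec14l1 (0.809), Nsun2 (0.761) and Brap (0.747). The genes nearest to Tgfbi were Dnm1 (0.876), H2-DMa (0.843) and Il6st (0.819). For Tnxb they were Macroh2a1 (0.928), Gltp (0.924) and Ube2z (0.914), and for Sparcl1 Rrm1 (0.928), Ano6 (0.889) and Ap3m1 (0.88). For Tnxb and Sparcl1 these arrays share the split by 18S set.

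Relatives of these proteins by domain were mostly dim. Of 9 (the testicans Spock1 to Spock3, Smoc1, Fstl1, Tnr, Tnn, Stab1 and Stab2), 4 passed the filter. Fstl1, a secreted SPARC relative, rose by 0.78 ± 0.20 without (limma adjusted p = 0.012) and 1.515 ± 0.20 with heart failure (adjusted p = 1.25e-05), and was 0.73 ± 0.18 higher with than without it (adjusted p = 0.0191). Smoc1 rose by 0.58 ± 0.22 with heart failure (adjusted p = 0.0442). Its sham values were almost equal (mean 4.841, SD 0.00145) and close to its lowest value on any array, 4.835. Dim values of this type are compressed, so the size of this rise is uncertain. The median of the 4 was 0.21, 0.51 and 0.34 in the 3 comparisons.

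Receptors for these proteins, integrin subunits, Cd44, Sdc4, Tlr4 and Egfr, had 13 of 14 members above the filter, all but Itgb3. Of these 4 were called higher without heart failure, 9 with it and 3 between the banded groups, and none was called lower. For this list and the collagen and upstream lists below, the shares of all genes called higher were 10.8%, 20.4% and 3.83%. The medians were 0.17, 0.53 and 0.22. Itgb6 differed by -1.25 ± 0.49 between mice with heart failure and sham and just missed the threshold (limma adjusted p = 0.0512). Itga9, the alpha subunit of an integrin that binds tenascin-C and osteopontin, rose by 1.17 ± 0.24 and 1.83 ± 0.24 (limma adjusted p = 0.00278 and 1.08e-05). Itga5, the alpha subunit of the main fibronectin receptor, rose by 1.13 ± 0.25 without heart failure (adjusted p = 0.00511). Itgb5, a partner of the alpha-v subunit, rose by 1.07 ± 0.10 with heart failure (adjusted p = 3.07e-07) and was 0.48 ± 0.09 higher with than without it (adjusted p = 0.00461). Cd44, a receptor for hyaluronan and osteopontin, was 0.53 ± 0.14 higher with than without heart failure (adjusted p = 0.0234).

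Collagen partners and processing enzymes had 11 of 12 members above the filter, of which 7 rose without and 9 with heart failure and 7 were higher with than without it; the medians were 0.72, 1.33 and 0.75. Lox, which crosslinks collagen and whose activation periostin assists, rose by 1.35 ± 0.37 and 3.40 ± 0.37 (limma adjusted p = 0.0183 and 1.62e-06) and was 2.05 ± 0.34 higher with than without heart failure (adjusted p = 0.0027). Col1a1 rose by 1.67 ± 0.28 and 2.54 ± 0.28 (adjusted p = 0.000567 and 1.65e-06), and Col1a2 was 0.93 ± 0.21 higher with than without heart failure (adjusted p = 0.0109).

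Upstream signals, mainly the TGF-beta pathway, which induces several of these genes, had 12 of 14 members tested. Of these 4 rose without heart failure, 6 rose and 1 fell with it, and 4 were higher with than without it; the medians were 0.18, 0.34 and 0.07. Tgfb2 rose by 1.84 ± 0.23 and 2.87 ± 0.23 (limma adjusted p = 4.61e-05 and 6.8e-08), and Tgfb3 by 1.10 ± 0.21 and 1.80 ± 0.21 (adjusted p = 0.00146 and 2.66e-06). Both were also higher with than without heart failure, by 1.03 ± 0.21 and 0.70 ± 0.19 (adjusted p = 0.00708 and 0.0274). Agtr1a, the angiotensin receptor, fell by 0.70 ± 0.14 with heart failure (adjusted p = 0.000913), the only member called lower.

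Markers of cell types were counted in the same comparisons. Over all genes tested 10.8% were called higher without and 20.4% with heart failure against sham, and 3.83% between the banded groups. Calls in either direction were 17.4%, 39.3% and 9.48%. In whole tissue, more cells of a type and more RNA per cell cannot be told apart. Of 6 markers of resting fibroblasts 3 rose without and 5 with heart failure, and their mean log2 signal lay at 11.42 to 12.01 in sham mice, 11.67 to 12.05 without and 11.93 to 12.34 with heart failure. Of 6 markers of activated fibroblasts (Acta2, Tagln, Cthrc1, Fap, Meox1 and Ddah1) 3 and 5 rose. Their means were 7.31 to 7.92, 7.86 to 8.95 and 8.48 to 9.51. Between the banded groups 2 of the 6 resting and 1 of the 6 activated fibroblast markers were called higher. So were 2 of 11 macrophage and leukocyte markers. Called lower there were 1 of 8 cardiomyocyte, 1 of 8 endothelial, 2 of 8 smooth muscle and pericyte, and 1 of 3 atrial markers. Of 11 macrophage and leukocyte markers limma called 0 without heart failure against sham (also 0 at an unadjusted p under 0.05) and 2 with it, Lgals3 and Gpnmb, with means of 7.34 to 8.70, 7.59 to 7.99 and 7.83 to 8.52. The highest of these sham means belonged to mouse 3, which also had the highest sham values of Fn1 (9.94), Tnc (4.75), Postn (11.41), Tgfbi (9.67) and Sparc (13.40). Of 8 cardiomyocyte markers limma called 0 without heart failure (1, Ryr2, at an unadjusted p under 0.05), and 4 fell with it (Myh6, Tnni3, Ryr2 and Pln). Of 8 endothelial markers 2 rose without and 3 with heart failure. Of 8 smooth muscle and pericyte markers 3 rose and 1 fell without heart failure, and 2 rose and 2 fell with it. All 3 lymphocyte markers with a probe set, 3 of 4 mesothelial markers and Bmp10 among the atrial ones were below the filter. The atria were cut away at dissection per the labels, yet the mean of 3 atrial markers ran from 6.54 to 11.86, 8.45 to 13.08 and 3.68 to 13.68 in the 3 groups, and with it as a term the same number of the 8 genes passed (5, 7 and 3; chosen after the data were seen). The part of the fibroblast and macrophage markers in the differences was not tested.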

How the data were processed

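RNA of the left ventricle of 19 mice was measured on Affymetrix arrays of 45101 probe sets, 1 array per mouse. The authors deposited log2 expression values, made with GCRMA per the submitters' processing notes (the version was not stated there). Its background correction uses probe sequence and pulls dim values toward a floor of 2.19, which compresses their differences. Precision is limited by how many arrays there are.

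Gene names came from GEO's annotation of the platform: 34958 had 1 gene symbol, 932 several and 9211 were not listed. Gene IDs of 34754 were in the RefSeq gene table and 0 were renamed. Of those with 1 symbol, 18595 exceeded a log2 of 4 on 5 or more arrays, and the brightest stood for each gene (10733 genes). A single limma model (version 3.58.1 in R 4.3.3) held all 19 arrays and a term for group, and p-values were adjusted by Benjamini-Hochberg across the genes, with a threshold of 0.05; other probe sets were adjusted over all probe sets. Nothing in the labels says that mice were littermates or paired, so each mouse is 1 replicate. Relations within groups used exact two-sided permutation tests (scipy 1.17.1, Python 3.11.15). The script was tested on simulated data.

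The genes, lists and alternatives were chosen with earlier results of these data known. Named by rule are the 8 measured genes, the 2 largest called changes of each related list in each comparison, and for each gene the 3 others most alike within groups. Agtr1a, Itgb6, the named cell markers, and probe sets other than the main ones, were named after their values were seen. No fold is given where an array of a compared group lay at or below 4.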

Additional observations from a re-analysis of the deposited data

Results flagged for a closer look

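In 24 sets of values (8 genes in 3 groups), 2 held a mouse far from the others by Dixon's criterion, which chance alone meets in about 1 of 20 sets. Tnc in banded mouse 2 without heart failure was 4.332, against 5.312 in the next mouse of its group. The gap over the range was 0.569, just past the critical value of 0.568. Sham mouse 4 gave the same value, 4.332, near the filter, where values are compressed. Without banded mouse 2 the difference of the banded mice without heart failure from sham was 1.59. Smoc2 in sham mouse 4 was 10.11, against 9.90 in the next sham mouse; without it the rises were 0.571 and 0.704.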

How the results depend on the processing

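Against sham, Postn, Tnc, Sparc, Smoc2 and Fn1 with heart failure and Postn and Sparc without it kept direction and call under the 15 other settings and the 19 fits that each left out 1 mouse. Tnxb, never called, changed sign. Its difference between the banded groups was -0.0495 with the ID series and -0.327 with the 18S set as a block, -0.337 on the low 18S arrays, -0.316 in ID series 2 and 3, and -0.0813 to 0.12 when single mice were left out. With heart failure against sham it was -0.193 with the 18S block, -0.112 with the actin covariate, -0.172 on the low 18S arrays and -0.151 in series 2 and 3, and without heart failure it was -0.148 with the actin covariate. With array weights 1914 genes and 5 of the 8 passed between the banded groups, and with the ID series as a block 5 of the 8. With the actin covariate 1199 genes passed without and 2705 with heart failure against sham; Fn1 lost its call in the first (1.07, adjusted p = 0.0918), where Sparcl1 went from 0.287 to 0.0266, and Sparcl1 in the second (0.319, adjusted p = 0.0505), and Tgfbi gained one in the first (0.816, adjusted p = 0.0265). On the low 18S arrays the counts were 343 (3 of the 8), 2670 and 149 (0 of the 8 by limma, 5 at an unadjusted p under 0.05). In ID series 1 there were 2202 genes and 5 of the 8 between the banded groups. In series 2 and 3 there were 212 (2 of the 8) and 2034 against sham, and between the banded groups limma called 0 genes and 0 of the 8, where 1465 genes and 5 of the 8 had an unadjusted p under 0.05; these subsets hold fewer mice. Leaving out single mice gave 1185 to 2200, 3538 to 4388 and 508 to 1146 genes and 4 to 6, 6 to 7 and 2 to 4 of the 8 in the 3 comparisons. The count was 1185 without sham mouse 2, and between the banded groups it was 508 and 672 without mice 5 and 6 without heart failure and 599 without mouse 2 with heart failure. With no filter Tgfbi with heart failure (adjusted p = 0.0751) and Fn1 between the banded groups (adjusted p = 0.0654) lost their calls; the cause was not tested. No paired analysis was possible because the labels carry no replicate numbers shared between groups.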
